A study of Mus musculus with 8 samples.

Results

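The expression of 10 genes of the NF-kappaB pathway was compared between 2D and 3D cultures of mouse adipose-derived stem cells (ADSCs). The genes were the subunits Nfkb1, Nfkb2, Rela and Relb, the IkB family members Nfkbia, Nfkbie, Nfkbiz and Bcl3, and the target genes Tnfaip3 and Icam1. They were chosen by gene symbol from 24346 listed genes, and all 10 were above 0 in every library. The cells came from the gonadal adipose tissue of twelve-week-old male BALB/c mice labelled WT. In 2D, cells of mice 2, 3, 4 and 5 were cultured conventionally. In 3D, cells of mice 1, 4, 5 and 7 grew in Matrigel, an extract of basement membrane, for which media conditioned with Wnt3a and R-Spondin1 had been tried. The medium and the passage of the sequenced cultures were not given in the sources used here. The matrix went with the culture type, so it cannot be told apart from any difference in medium between 2D and 3D. Each of the 8 cultures gave 1 library of total RNA without ribosomal RNA, with an estimated depth between 14460000 and 17420000 fragments. Both culture types were sequenced from mice 4 and 5.

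The values are FPKM, the fragments of a gene scaled to its length and to the total of the library, which allows levels of different genes to be compared per length. They were quantile normalized, which gives the 8 libraries 1 common distribution, and differences are given as 3D minus 2D on the scale of log2(FPKM + 1). On this scale the change of a gene at low FPKM is understated. A gene was called higher or lower in 3D at an adjusted p below 0.05 in limma's moderated test over 18862 genes. Values are listed in the order of mice 2, 3, 4 and 5 for 2D and of mice 1, 4, 5 and 7 for 3D.

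NF-kappaB proteins bind DNA as pairs of subunits, and in resting cells IkB proteins hold them in the cytoplasm. Signals from cytokine and Toll-like receptors reach a kinase complex that marks the IkB proteins for breakdown, while a slower, noncanonical branch processes the Nfkb2 product and frees Relb. Several inhibitors, Nfkbia and Tnfaip3 among them, are themselves target genes and close a negative feedback loop, and adipose stromal cells use the pathway when they answer inflammatory cytokines.

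The libraries were labelled as mesenchymal stem cells, and the markers of this label were checked first. Of 12 stromal markers, 7 were lower in 3D and 1, Ly6a, was higher, and Pdgfrb, Dcn and Lum were at 0 in all 4 3D libraries. The call of Ly6a (limma's adjusted p = 0.0432, over all alternatives 0.000926 to 0.156) was lost with values as deposited, under upper quartile scaling, without the trend, with the mouse as a block, without the 2D libraries of mice 3 and 4, and when any of 6 single libraries was left out, and its groups overlapped. The number of stromal markers called lower was 5 with mice 4 and 5 alone and 0 with the mouse as a block. Col1a1 was at 635, 434, 260 and 635 normalized FPKM in 2D and at most at 0.107 in 3D. The label was thus not met in 3D by Col1a1, Pdgfrb and Dcn, while Cd44 did not pass the test (limma's adjusted p = 0.362, over all alternatives 0.0314 to 0.954) and was at 93.6, 90.3, 115 and 62.9 normalized FPKM there. In the deposited values all 3D libraries were below all 2D libraries for Cd44. Of 8 epithelial markers, 7 were higher in 3D, and their summed level was 31.8, 176, 694 and 31.6 normalized FPKM in 2D and 2390, 2794, 2908 and 2636 in 3D. Of these 8 markers 5 to 8 were called when a single library was left out, 4 with mice 4 and 5 alone and 0 with the mouse as a block, and Krt8 and Krt18 had the highest means in each culture type. Of 8 leukocyte markers, 1, Cd68, was higher in 3D, at 1.19, 2.80, 3.01 and 0.874 normalized FPKM in 2D and at 5.98, 36.3, 9.72 and 8.76 in 3D (limma's adjusted p = 0.0133, over all alternatives 0.007 to 0.117). Lyz2 was at 18.7, 0.227, 8.04 and 0.552 in 2D and at 0 in 3D without passing the test (adjusted p = 0.0894, over all alternatives 0.0162 to 0.331, the lowest with a pseudocount of 0.1). Csf1r was at 0.895, 0.486, 1.44 and 0.647 in 2D and at 0.264, 5.97, 7.65 and 3.40 in 3D and did not pass either (adjusted p = 0.129, over all alternatives 0.00272 to 0.269), but without the 3D library of mouse 1 it was higher by 1.83 (adjusted p = 0.0027). That library held the lowest 3D value of Csf1r, so the larger difference without it follows from its removal. Ptprc was at most at 0.0779 and Cd3e at 0 in all 8 libraries. Of 5 adipocyte markers, Adipoq and Lep were at 0 in all libraries, and Lpl was lower in 3D, at 7.10, 19.1, 39.2 and 6.62 in 2D and at most at 0.0995 in 3D (adjusted p = 0.000861, over all alternatives 1.41e-05 to 0.168). None of 5 endothelial markers was called, with a summed level of 0.928, 4.23, 6.74 and 0.412 in 2D and at most 0.202 in 3D, though Kdr, Tek, Cdh5 and Pecam1 each passed as lower in 3D in 1 or more alternatives, with lowest adjusted p of 0.00149, 0.0124, 0.0188 and 0.0194 and highest of 0.42, 0.526, 0.527 and 0.907. In bulk RNA, fewer cells of a type and less RNA per cell cannot be told apart, so each difference between culture types below is a difference between cultures of unlike marker content.

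Some libraries stood apart within their culture type. The 2D libraries of mice 3 and 4 held mesothelial markers at a summed level of 848 and 2111 normalized FPKM, and those of mice 2 and 5 at 27.5 and 28.6. Msln (253 and 728) and Upk1b (305 and 643) were the most abundant of these 6 markers in mice 3 and 4, and Upk3b and Lrrn4 were at 0 in the 2D libraries of mice 2 and 5. The 2D library of mouse 3 held 40.6% of its FPKM total in genes shorter than 300 nt, against 19.5% to 27.1% in the other 2D libraries. The 3D library of mouse 1 held 63.2% in such genes, against 28.7% to 37.9% in the other 3D libraries. The title of this library gives 3D culture, but its short description lacks the 3D tag that those of the other 3D libraries carry, and the reason was not given in the sources. Its Ly6a level was 58.6 normalized FPKM, against 1429, 2473 and 3117 in the others. The part of these markers in the results was not tested.

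Of the 10 genes, 5 were higher in 3D (Nfkb1, Nfkb2, Relb, Nfkbia and Nfkbie), 1 was lower (Tnfaip3) and 4 did not pass the test (Rela, Nfkbiz, Bcl3 and Icam1). Over all 18862 genes the test called 41.5%, with 21.2% higher and 20.3% lower in 3D. The median log2 difference of the 10 genes was 1.03, beside 0.0012 over all genes tested. After normalization the libraries of the culture types did not overlap in 6 of the 10 genes, the same 6 that were called, and in 42.5% of all genes. In the deposited values they did not overlap in 3 of the 10 (Nfkb1, Relb and Nfkbie) and in 45.5% of all genes, while Nfkb2, Nfkbia and Tnfaip3 overlapped. Taking the mouse as a block compares the culture types within mice 4 and 5 only, on 1 residual degree of freedom. There limma called 0 of the 10 and 0 of all genes, while 4 of the 10 (Nfkb1, Nfkbia, Nfkbie and Nfkbiz) had an unadjusted p below 0.05, as had 27.7% of all genes.

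**Figure D1:**
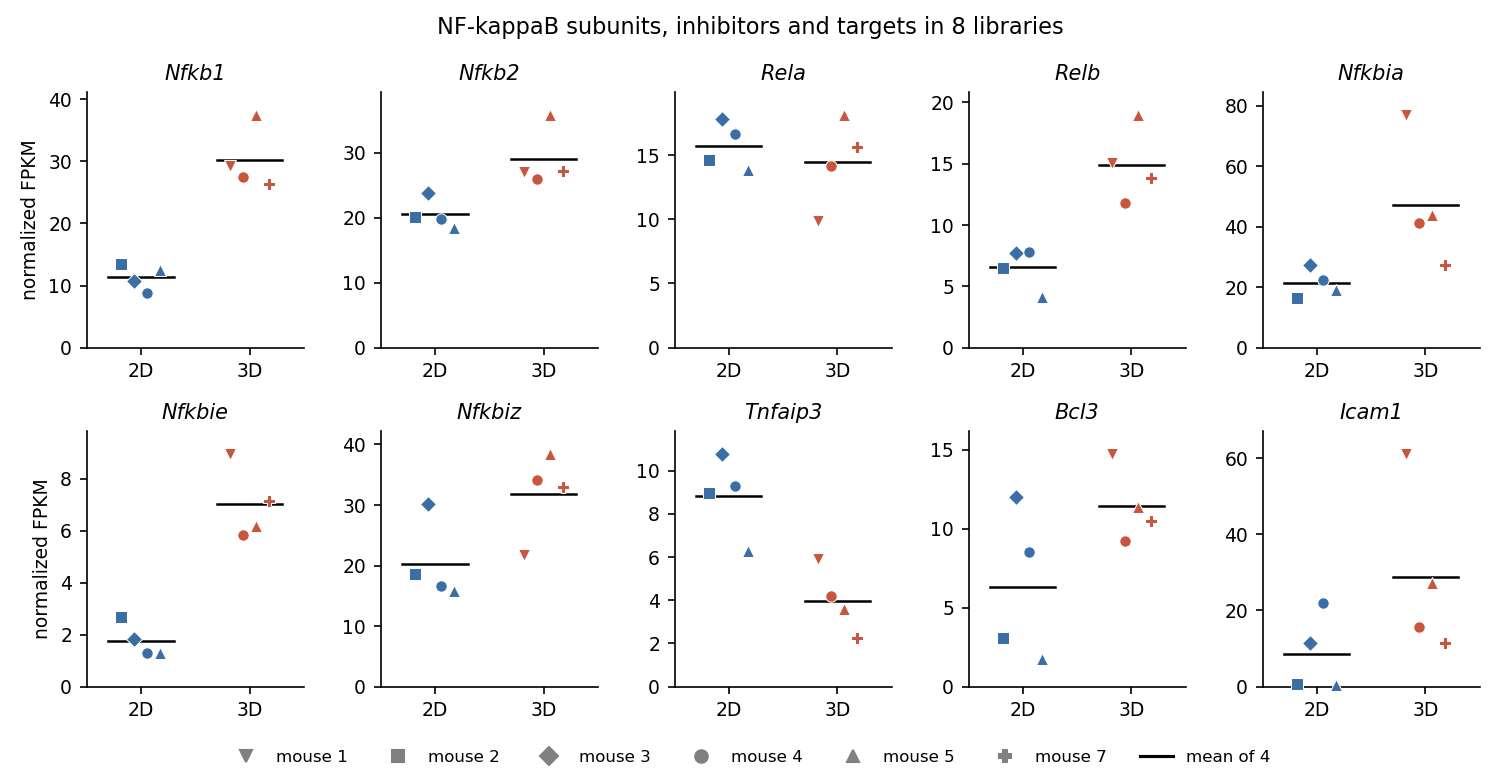
Normalized FPKM (vertical axes, each from 0) of the 10 genes in 4 libraries of 2D and 4 of 3D cultures; each point is 1 library, its shape gives the mouse and lines give means. In these normalized values the 3D libraries lie above all 2D libraries for Nfkb1, Nfkb2, Relb, Nfkbia and Nfkbie and below them for Tnfaip3, and the groups overlap for the other 4 genes; in the deposited values Nfkb2, Nfkbia and Tnfaip3 overlap as well.

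The order of the levels of the genes, as in the plot of the values by library, differed between the culture types. In 2D the highest means per length were those of Nfkbia (21.3 ± 4.68 normalized FPKM, SD, n = 4), Nfkb2 (20.6 ± 2.26) and Nfkbiz (20.3 ± 6.66). Rela followed at 15.7 ± 1.82 and Nfkb1 at 11.4 ± 2.02, and the lowest mean was that of Nfkbie, at 1.77 ± 0.664. In this order only the steps from Rela to Nfkb1 and from Nfkb1 to Tnfaip3 (8.83 ± 1.87) were larger than the SD of either gene. In 3D the mean of Nfkbia was again first at 47.4 ± 21.01. Its step to Nfkbiz, of 15.6, was smaller than this SD, and in mouse 7 Nfkbiz (32.9) was above Nfkbia (27.4). Nfkbiz, Nfkb1, Nfkb2 and Icam1 lay between 28.9 and 31.8, closer to each other than their SDs. The last 3 in 3D were Bcl3 at 11.5 ± 2.35, Nfkbie at 7.02 ± 1.40 and Tnfaip3 at 3.98 ± 1.504, and each of these steps was larger than the SDs. Tnfaip3 thus stood at place 6 in 2D and at place 10 in 3D, and Nfkb1 at places 5 and 3.

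Promoter sequence was looked at because 6 of the genes differed between the culture types. RefSeq promoters of build GRCm38.p6 were at hand for 7 of the 10 genes, and entries for Nfkb1, Relb and Nfkbiz were missing. The 250 bases before each start site were searched on both strands for the NF-kappaB consensus, a motif of 10 letters, and for GGAATTTCC, whose reverse complement is GGAAATTCC. The motifs overlap, and 1 stretch can match each of them. Either motif was found for 5 genes, and neither in the windows of Rela and Bcl3. Of 32851 mouse promoter entries searched the same way, 3.90% held the consensus, 0.29% held GGAATTTCC and 4.03% held either. These are shares of entries and not of genes, and the 7 genes had 10 entries. A match describes letters in the window and shows no binding. For each gene a stretch with matches is shown 5′ to 3′ on the strand of the gene, with the matches described below in capitals, so that their spacing and flanks can be compared.
Nfkbia: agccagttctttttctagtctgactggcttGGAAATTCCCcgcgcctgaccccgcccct
Tnfaip3: gactGGAATTTCCatcGGAAATCCCCct
Nfkbie: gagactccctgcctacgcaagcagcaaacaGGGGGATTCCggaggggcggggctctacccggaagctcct
Nfkb2: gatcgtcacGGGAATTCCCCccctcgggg
Icam1: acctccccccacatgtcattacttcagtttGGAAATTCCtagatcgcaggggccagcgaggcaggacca

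The Nfkbia stretch lies at chr12:55492648-55492706 on the minus strand and holds GGAAATTCCC, matched by both motifs, at positions -29 to -20 from the start site. That of Tnfaip3 lies at chr10:19015411-19015438 on the minus strand and holds a match of each motif, separated by 3 bases. A further consensus match of Tnfaip3, GGGACACCCC, lies at -125 to -116. These Tnfaip3 matches are from start site 1 and lie within the annotated span of the gene. The window of start site 2 of Tnfaip3 held neither motif. The Nfkbie stretch is at chr17:45555564-45555633 on the plus strand, and its match lies at -106 to -97. The Nfkb2 stretch is at chr19:46304689-46304717 on the plus strand, where 2 consensus matches overlap at -39 to -29. Further consensus matches of Nfkb2 lie at -11 to -2 from the same start site (GGGGCTTTCC) and, from start sites 2 and 3, at -236 to -227 (GGAATGTCCC) and at -225 to -216 (GGGACTTTCC). The stretches around all of these Nfkb2 matches overlap annotated exons. The Icam1 stretch is at chr9:21015757-21015825 on the plus strand, and its match to GGAAATTCC lies at -153 to -145. Tnfaip3, which was lower in 3D, and Nfkbia, which was higher, each held matches of both motifs, for Tnfaip3 from start site 1 only.

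Nfkb1, on chromosome 3 (chr3:135584655-135691547, minus strand, mm10), encodes the precursor of a DNA-binding subunit. It was at 13.4, 10.7, 8.87 and 12.5 normalized FPKM in 2D and at 29.3, 27.5, 37.4 and 26.4 in 3D. The groups did not overlap, and even the lowest 3D library, that of mouse 7, was far above the highest 2D library. The difference was 1.33 (standard error 0.16, limma's adjusted p = 0.0004), and it was 1.53 within mouse 4 and 1.51 within mouse 5. With the mouse as a block it was 1.52 with an adjusted p of 0.111, and over all alternatives the adjusted p ran from 0.000213 to 0.111.

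Nfkb2, on chromosome 19 (chr19:46304320-46312385, plus strand), encodes the precursor that the noncanonical branch processes. It was at 20.2, 23.8, 19.8 and 18.5 normalized FPKM in 2D and at 27.1, 26.0, 35.8 and 27.2 in 3D. The groups did not overlap after normalization, with the 3D library of mouse 4 only a little above the 2D library of mouse 3, and mouse 5 was alone at the top of 3D. In the deposited values this order was turned, with mouse 4 in 3D at 24.27 and mouse 3 in 2D at 24.40 FPKM, and the groups overlapped. The difference was 0.47 (standard error 0.12, limma's adjusted p = 0.0177), smaller than that of Nfkb1. Without quantile normalization it was 0.30 with an adjusted p of 0.0600, and with the mouse as a block 0.65 with an adjusted p of 0.236. The adjusted p was 0.115 with mice 4 and 5 alone and ran from 0.0146 to 0.236 over all alternatives.

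Rela, on chromosome 19 (chr19:5637483-5648130, plus strand), encodes the main activating subunit of the canonical pathway. It was at 14.7, 17.8, 16.6 and 13.8 normalized FPKM in 2D and at 9.88, 14.2, 18.1 and 15.6 in 3D. The groups overlapped, and the 3D library of mouse 1 was the lowest of the 8. The difference was -0.14, with a 95% confidence interval from -0.55 to 0.28 (limma's adjusted p = 0.561). Its sign depended on the 3D library of mouse 1, without which it was 0.02, and the adjusted p was 0.312 or higher in all alternatives.

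Relb, on chromosome 7 (chr7:19606217-19629438, minus strand), encodes the activating partner of the processed Nfkb2 product. It was at 6.47, 7.72, 7.83 and 4.17 normalized FPKM in 2D and at 15.1, 11.8, 18.95 and 13.9 in 3D. Every 3D library was above every 2D library, and mouse 5 gave both the lowest 2D and the highest 3D value. The difference was 1.09 (standard error 0.21, limma's adjusted p = 0.0047), with 0.54 within mouse 4 and 1.95 within mouse 5. In the block fit it was 1.24 with an adjusted p of 0.292, and with mice 4 and 5 alone the adjusted p was 0.121. Over all alternatives the adjusted p ran from 0.00253 to 0.292.

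Nfkbia, on chromosome 12 (chr12:55489410-55492647, minus strand), encodes the prototype of the IkB proteins. It was at 16.3, 27.2, 22.4 and 19.1 normalized FPKM in 2D and at 76.9, 41.2, 44.0 and 27.4 in 3D. The 3D values spread widely, and that of mouse 7 was just above the highest 2D value, that of mouse 3. In the deposited values mouse 7 in 3D, at 25.3 FPKM, was below mouse 3 in 2D, at 28.2, so the groups overlapped, and the difference was 0.80 with limma's adjusted p of 0.0477. The difference was 1.05 (standard error 0.30, limma's adjusted p = 0.0255). The call was lost without the 2D library of mouse 2 (0.92, adjusted p = 0.0664), without that of mouse 5 (0.99, adjusted p = 0.0615) and without the 3D library of mouse 5 (1.07, adjusted p = 0.0562). Without the 3D library of mouse 1, which had the highest value, the difference was 0.80 with an adjusted p of 0.0289, and with the mouse as a block it was 1.01 with an adjusted p of 0.128. The adjusted p ran from 0.0101 to 0.128 over all alternatives.

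Nfkbie, on chromosome 17 (chr17:45555703-45563169, plus strand), encodes another cytoplasmic IkB protein. It was at 2.70, 1.82, 1.30 and 1.28 normalized FPKM in 2D and at 8.94, 5.84, 6.17 and 7.14 in 3D. All 3D libraries were above all 2D libraries, and the mean was 3.96 times as high. The difference of 1.55 (standard error 0.21, limma's adjusted p = 0.0009) was 1.57 within mouse 4 and 1.65 within mouse 5. In the block fit it was 1.61 with an adjusted p of 0.129, and the adjusted p ran from 0.00027 to 0.129 over all alternatives.

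Nfkbiz, on chromosome 16 (chr16:55811375-55838899, minus strand), encodes a nuclear IkB protein that acts as a cofactor of NF-kappaB on a part of its targets. It was at 18.6, 30.2, 16.7 and 15.8 normalized FPKM in 2D and at 21.7, 34.1, 38.4 and 32.9 in 3D. The 3D library of mouse 1 was below the 2D library of mouse 3, and in the deposited values so were those of mice 4 and 7. The difference was 0.64 and did not pass the test (standard error 0.24, limma's adjusted p = 0.0692). Without the 2D library of mouse 3 it was 0.83 with an adjusted p of 0.0147, and without the 3D library of mouse 1 it was 0.82 with an adjusted p of 0.0252. These libraries held the highest 2D and the lowest 3D value of Nfkbiz, so both larger differences follow from their removal. With mice 4 and 5 alone the difference was 1.11 with an adjusted p of 0.0204, and over all alternatives the adjusted p ran from 0.0147 to 0.158.

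**Figure D2:**
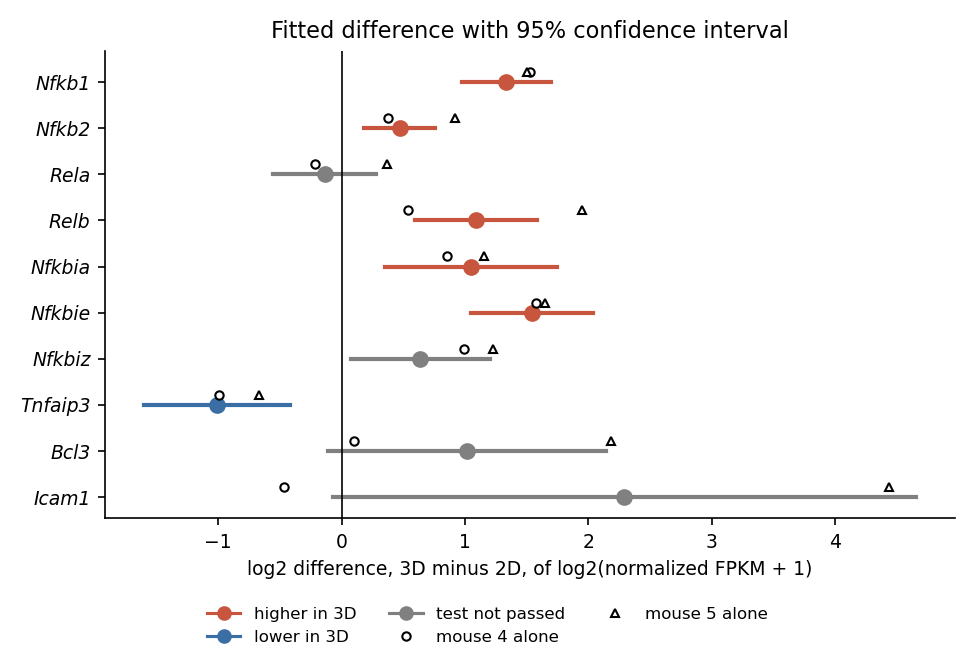
Difference between 3D and 2D cultures of log2(normalized FPKM + 1) (horizontal axis) for each gene, as fitted with limma over 8 libraries, with 95% confidence intervals as bars; open symbols give the difference within mouse 4 and within mouse 5. The intervals of Rela, Bcl3 and Icam1 span 0 and those of Icam1 and Bcl3 are the widest, with mouse 4 at -0.47 and mouse 5 at 4.43 for Icam1.

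The plot of the fitted differences shows Tnfaip3 as the only called gene to the left of 0. Tnfaip3, on chromosome 10 (chr10:19000910-19015657, minus strand), encodes a ubiquitin-editing enzyme, A20, that shuts off signaling to the kinase complex. It was at 8.98, 10.8, 9.30 and 6.27 normalized FPKM in 2D and at 5.89, 4.18, 3.58 and 2.27 in 3D. The groups did not overlap after normalization, with mouse 5 in 2D only a little above mouse 1 in 3D. In the deposited values mouse 5 in 2D, at 5.72 FPKM, was below mouse 1 in 3D, at 6.59, so the groups overlapped, and the difference was -0.84 with limma's adjusted p of 0.0401. The difference was -1.01 (standard error 0.26, limma's adjusted p = 0.0151), with -0.99 within mouse 4 and -0.67 within mouse 5. Under upper quartile scaling the difference was -0.79 and the adjusted p reached 0.05. With mice 4 and 5 alone the adjusted p was 0.133, and with the mouse as a block the difference was -0.83 with an adjusted p of 0.198. Over all alternatives the adjusted p ran from 0.00709 to 0.198.

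Bcl3, on chromosome 7 (chr7:19808462-19822770, minus strand), encodes a nuclear IkB protein that binds dimers of the processed Nfkb1 and Nfkb2 products. It was at 3.06, 12.0, 8.53 and 1.73 normalized FPKM in 2D and at 14.7, 9.22, 11.4 and 10.5 in 3D. The 2D libraries of mice 3 and 4 lay within or near the range of 3D, and those of mice 2 and 5 lay below it. The difference of 1.02 (standard error 0.49) did not pass the test (limma's adjusted p = 0.135). Without the 2D library of mouse 3 it was 1.37 with an adjusted p of 0.0397, without that of mouse 5 it was 0.62 with an adjusted p of 0.266, and over all alternatives the adjusted p ran from 0.00242, without the 2D libraries of mice 3 and 4, to 0.442. The 2D library of mouse 3 held the highest 2D value of Bcl3, so the larger difference without it follows from its removal.

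Icam1, on chromosome 9 (chr9:21015985-21028817, plus strand), encodes an adhesion molecule for leukocytes and is a widely used readout of NF-kappaB. It was at 0.692, 11.4, 22.1 and 0.3115 normalized FPKM in 2D and at 61.0, 15.7, 27.3 and 11.5 in 3D. The 2D libraries again fell into mice 3 and 4 with high and mice 2 and 5 with low values, and in mouse 4 the 2D library was above the 3D library. The difference of 2.29 (standard error 1.02) did not pass the test (limma's adjusted p = 0.111). Without the 2D library of mouse 4 it was 3.02 with an adjusted p of 0.0365, and over all alternatives the adjusted p ran from 0.0051, again without the 2D libraries of mice 3 and 4, to 0.511. The 2D library of mouse 4 held the highest 2D value of Icam1, so the larger difference without it follows from its removal.

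**Figure D3:**
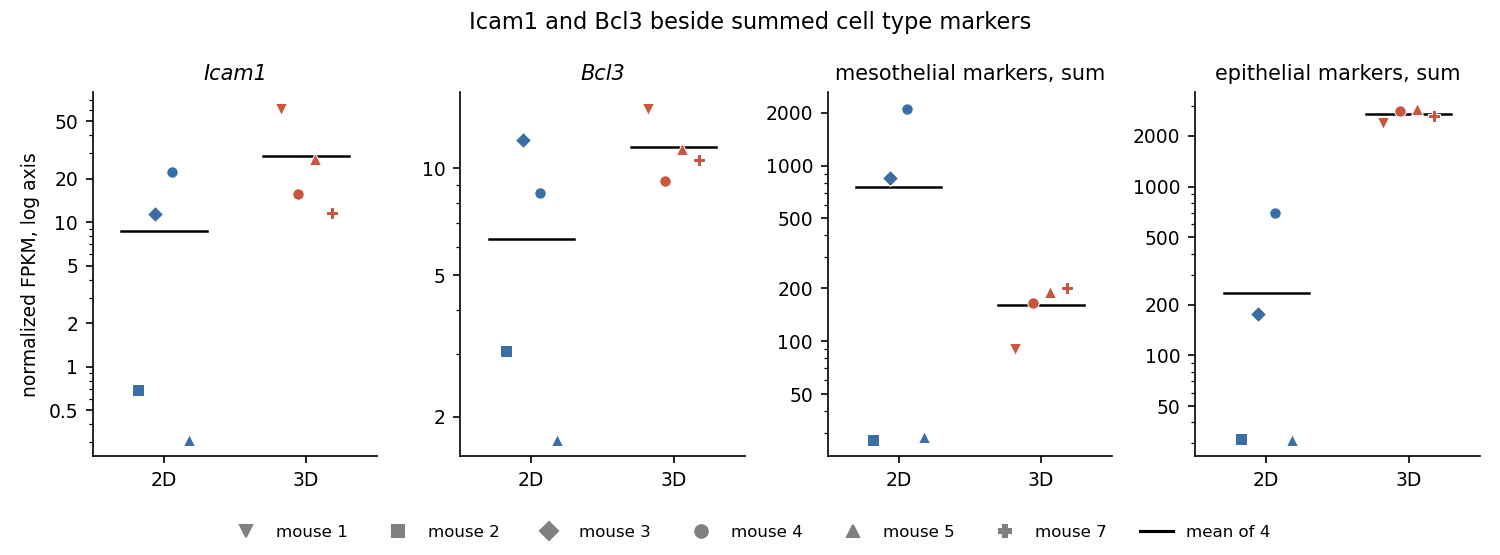
Normalized FPKM (log axes) of Icam1, of Bcl3 and of the sums of 6 mesothelial and 8 epithelial markers in the 8 libraries; each point is 1 library, its shape gives the mouse and lines give means. In 2D, mice 3 and 4 are high and mice 2 and 5 low in all 4 panels, and the mesothelial sum runs from 27.5 to 2111.

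The plot of Icam1 and Bcl3 beside the marker sums places them next to the levels of mesothelial and epithelial genes in the same libraries. The mesothelial sum was 27.5, 848, 2111 and 28.6 normalized FPKM in 2D and 90.1, 165, 191 and 200 in 3D, where Krt19, which is also among the epithelial markers, made up most of it. The same 2 of the 4 2D libraries were thus high in Icam1, in Bcl3 and in the mesothelial sum, and the part of mesothelial cells in the Icam1 and Bcl3 values was not tested. In an alternative chosen after seeing the data, the 2D libraries of mice 3 and 4 were left out, which leaves 2 libraries of 2D. These libraries hold the 2 highest 2D values of Icam1 and of Bcl3. The larger differences of 4.02 and 1.87 that these genes then had thus follow from the choice of libraries and test nothing further. The 2 highest 2D values of Relb, Nfkbia, Rela and Tnfaip3 were also in these libraries, so the changed values of these genes follow from the choice too. In this alternative 8 of the 10 genes, with Icam1 and Bcl3 among them, were higher in 3D and 0 lower, with Tnfaip3 at -0.82 and limma's adjusted p of 0.0985. Of the 18428 genes tested there, 19.3% were higher and 22.8% lower.

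Ratios of 2 genes within a library do not depend on the scaling between libraries. They were formed from deposited FPKM without a pseudocount, and the culture types were compared with a two-sided exact permutation test of 4 against 4 libraries, whose smallest possible p is 0.0286. All 3 ratios were examined together and reached this p, which is also their value after Benjamini-Hochberg adjustment. This test treats the 8 libraries as independent, although 4 of them come from mice 4 and 5. If the libraries of these mice are only swapped within the mouse, a test chosen after seeing the data, 24 arrangements remain. The smallest possible exact p is then 0.0833, which all 3 ratios reached, so with the mouse as a block no ratio could pass.

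The log2 ratio of Nfkb2 over Nfkb1 was 0.68, 1.196, 1.24 and 0.63 in 2D and -0.10, -0.07, -0.07 and 0.04 in 3D. In 2D there was more Nfkb2 than Nfkb1 per length in each library, and in 3D the levels of both genes were nearly equal in each library. The mean ratio fell by 0.99 on the log2 scale, from 0.94 ± 0.33 (SD, n = 4) to -0.05 ± 0.06 (exact p = 0.0286), and it fell by 1.31 within mouse 4 and by 0.69 within mouse 5.

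The log2 ratio of Relb over Rela was -1.37, -1.27, -1.15 and -1.95 in 2D and 0.54, -0.24, 0.05 and -0.16 in 3D. Rela was thus the more abundant of these subunit genes in every 2D library. In 3D Relb was at 0.85 to 1.45 times the level of Rela per length. The mean rose by 1.48, from -1.43 ± 0.35 (SD, n = 4) to 0.05 ± 0.35 (exact p = 0.0286), and the ratio rose by 0.91 within mouse 4 and by 2.00 within mouse 5.

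The log2 ratio of Nfkbia over Rela was 0.19, 0.64, 0.47 and 0.54 in 2D and 2.64, 1.37, 1.104 and 0.72 in 3D. All 3D libraries were above all 2D libraries, that of mouse 7 by the smallest step. The mean rose by 1.00, from 0.46 ± 0.19 (SD, n = 4) to 1.46 ± 0.83 (exact p = 0.0286), and by 0.61 without the 3D library of mouse 1 (exact p = 0.0286). When any single 2D library was left out, the exact p was 0.0571. Within mouse 4 the ratio rose by 0.90 and within mouse 5 by 0.56.

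**Figure D4:**
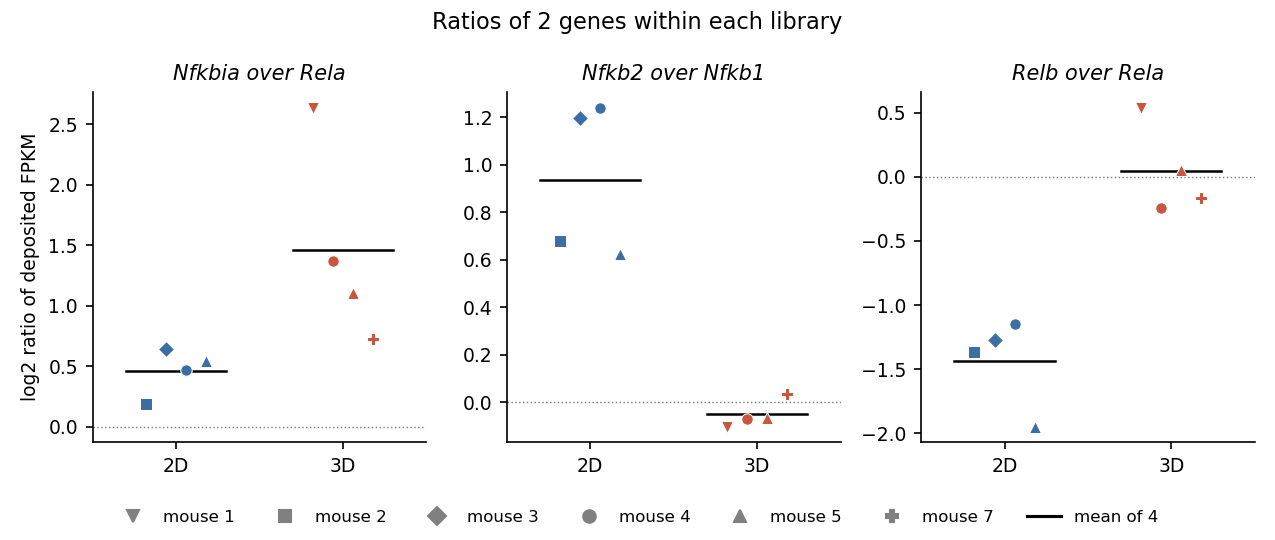
Log2 ratio of deposited FPKM of 2 genes within each library (vertical axes) for 2D and 3D cultures; each point is 1 library, its shape gives the mouse, lines give means and the dotted line marks equal levels. Nfkb2 over Nfkb1 falls from a mean of 0.94 to -0.05, and Relb over Rela rises from -1.43 to 0.05.

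As the plot of the ratios shows, the 3D libraries lay close to equal levels for Nfkb2 and Nfkb1. For Relb over Rela they lay on both sides of equal levels, at log2 ratios from -0.24 to 0.54. Among libraries of the same culture type the 10 genes varied in different ways. The mean of each culture type was subtracted, and Pearson's r of the deviations was taken over 8 libraries, which share 2 mice, as a description. Of 45 pairs of the genes, 33 had a positive r, with a median of 0.25 and a range from -0.51 (Nfkb1 and Icam1) to 0.90 (Bcl3 and Icam1). In both of the latter genes the 2D libraries of mice 3 and 4 were above those of mice 2 and 5. The share of positive r among pairs of other genes was not taken. The count of 33 is thus not shown to be particular to the 10 genes. Nfkbia and Tnfaip3, which differed in opposite directions between the culture types, had an r of 0.85, and the 3D library of mouse 1 was the highest 3D library in each of them. Among 12582 genes whose mean level was 1 FPKM or more, those most like Nfkbia by this measure were Zfp654 (r = 0.991), Ecm1 (0.988), Ackr3 (0.979), Adipor2 (0.968) and St6gal1 (0.962). They were picked as the highest of many values over few libraries, so a high r follows from the choice. The 3D library of mouse 1 stood far above all others in Nfkbia and weighs heavily in these values.

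Further genes of the pathway were described from 4 lists with 103 genes, of which 102 were tested and Cd40lg was at 0 in all libraries. Of the 102, 28 were higher and 21 lower in 3D, or 27.5% and 20.6%, beside 21.2% and 20.3% of all genes. Their median difference was 0.25. With the mouse as a block 0 were called, and 32, or 31.4%, had an unadjusted p below 0.05, beside 27.7% of all genes. With mice 4 and 5 alone 16 were higher and 8 lower, while 9.89% of the 18081 genes tested there were higher and 7.92% lower.

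**Figure D5:**
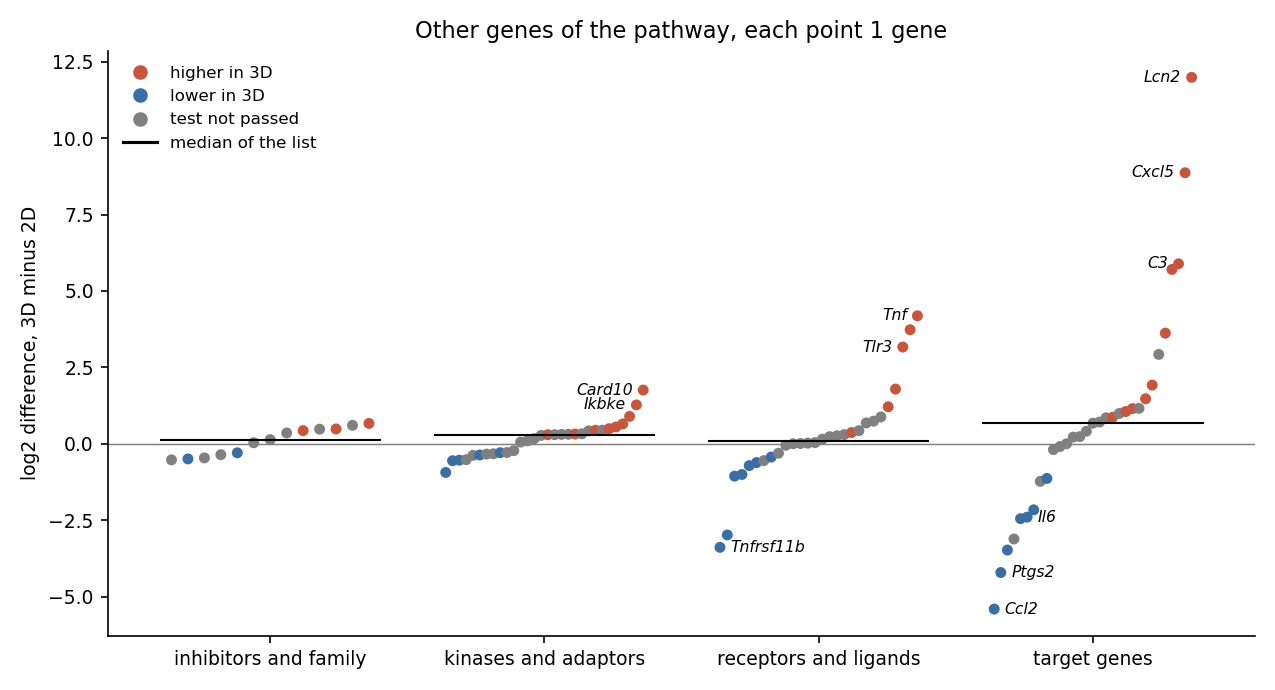
Difference between 3D and 2D cultures of log2(normalized FPKM + 1) (vertical axis) for the 102 tested genes of 4 lists; each point is 1 gene, ordered within its list, and colors give the call. Differences of the inhibitors and kinases stay within 2 in either direction, and those of receptors, ligands and target genes run from -5.41 (Ccl2) to 11.99 (Lcn2).

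The first list held 13 further inhibitors and family members, of which 3 were higher, 2 were lower and 8 did not pass, with a median of 0.14. The shares were 23.1% higher and 15.4% lower, beside 21.2% and 20.3% of all genes. Tnip2, a partner of A20, was at 7.13, 7.81, 8.03 and 6.11 normalized FPKM in 2D and at 11.7, 13.8, 13.2 and 9.93 in 3D. Its difference was 0.67 (standard error 0.14, limma's adjusted p = 0.0057), with a range over all alternatives from 0.00305 to 0.163, the latter with the mouse as a block. The ubiquitin ligase Itch, which acts with A20, differed by 0.48 (standard error 0.09, adjusted p = 0.0039), and by 0.28 with values as deposited (adjusted p = 0.0244, over all alternatives 0.00325 to 0.152). Rnf11, another protein of the A20 complex, fell by 0.30 (adjusted p = 0.0256) and by 0.72 with values as deposited, and Otulin, which removes linear ubiquitin chains, fell by 0.50 (adjusted p = 0.0080, over all alternatives 0.00487 to 0.248). Tnip2 and Itch were thus called higher and Rnf11 lower, and these calls were lost with the mouse as a block. Nfkbid, a nuclear IkB gene, stayed under 1 normalized FPKM, and reached at most 1.13 FPKM in the deposited values. It differed by 0.43 (adjusted p = 0.0489). The call of Nfkbid was lost without the 2D library of mouse 3 or 5 or the 3D library of mouse 4, 5 or 7, with adjusted p between 0.0925 and 0.110, and over all alternatives from 0.00574 to 0.221. That of Rnf11 was lost without the 2D library of mouse 2 or 5 or the 3D library of mouse 4 or 7, with adjusted p between 0.0510 and 0.0589, and over all alternatives from 0.00191 to 0.259. The subunit gene Rel was at 3.35, 3.46, 2.89 and 3.86 normalized FPKM in 2D and at 1.77, 2.52, 2.92 and 2.55 in 3D (adjusted p = 0.110, over all alternatives 0.0478 to 0.823). Nfkbib, Cyld, Tnip1, Tnip3, Tax1bp1, N4bp1 and Zc3h12a did not pass either with all libraries. N4bp1 passed without the 3D library of mouse 1 (0.80, adjusted p = 0.0463, over all alternatives 0.0402 to 0.257) and Zc3h12a without the 2D library of mouse 3 (0.63, adjusted p = 0.0194, over all alternatives 0.0194 to 0.199). These held the lowest 3D value of N4bp1 and the highest 2D value of Zc3h12a, so the larger differences follow from their removal. Zc3h12a also passed with values as deposited (0.64, adjusted p = 0.0419) and under upper quartile scaling (0.69, adjusted p = 0.0314). When the 2D libraries of mice 3 and 4 were left out, N4bp1, Zc3h12a, Cyld, Tax1bp1 and Tnip3 passed. Nfkbid did not, with a difference of 0.51 (adjusted p = 0.0877). The libraries left out hold the 2 highest 2D values of N4bp1, Cyld, Tax1bp1 and Tnip3. The higher differences of these genes without them follow from this choice and test nothing further. Cyld was then at 0.47 (adjusted p = 0.0262, over all alternatives 0.0262 to 1.0), Tax1bp1 at 0.64 (adjusted p = 0.0297, over all alternatives 0.0297 to 0.946) and Tnip3, with a change of sign, at 0.86 (adjusted p = 0.0132, over all alternatives 0.0132 to 0.954).

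The second list held 30 kinases and adaptors, of which 9 were higher, 5 were lower and 16 did not pass, with a median of 0.28. The largest rise was that of Card10, a scaffold that links receptors to the kinase complex. It was at 3.32, 4.72, 1.91 and 1.68 normalized FPKM in 2D and at 10.7, 12.5, 13 and 10.4 in 3D, a difference of 1.76 (standard error 0.25, limma's adjusted p = 0.0012, over all alternatives 0.00048 to 0.111). Ikbke, a kinase related to those of the complex, was at 4.23, 8.02, 6.11 and 3.699 in 2D and at 12.6, 14.3, 19.0 and 11.8 in 3D, a difference of 1.27 (adjusted p = 0.0042, over all alternatives 0.00214 to 0.176). The culture types overlapped in neither gene. Rnf31, the catalytic subunit of the linear ubiquitin ligase, was at 4.18, 5.22, 3.73 and 3.81 in 2D and at 4.79, 12.9, 9.71 and 9.19 in 3D, a difference of 0.90 (adjusted p = 0.0293), with the 3D library of mouse 1 within the 2D range, though not in the deposited values. This call was lost without the 2D library of mouse 2, 4 or 5 or the 3D library of mouse 4, 5 or 7, with adjusted p between 0.0625 and 0.0746, and over all alternatives from 0.00225 to 0.145. Map3k14, the kinase of the noncanonical branch, was at 3.73, 4.91, 3.23 and 3.92 in 2D and at 5.68, 6.22, 6.19 and 6.69 in 3D, a difference of 0.55 (adjusted p = 0.0164, over all alternatives 0.00258 to 0.241).

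Among the 3 core components of the kinase complex, Chuk was lower and Ikbkb and Ikbkg did not pass. Chuk, 1 of its catalytic subunits, was at 23.4, 25.2, 24.0 and 20.98 normalized FPKM in 2D and at 16.7, 20.5, 18.4 and 20.2 in 3D. The difference of -0.29 (limma's adjusted p = 0.0366) was no longer called without the 2D library of mouse 2, 3 or 4 or the 3D library of mouse 1 or 5, with adjusted p between 0.0733 and 0.0895, and over all alternatives from 0.0043 to 0.413. Ikbkb, the other catalytic subunit, was at 12.6, 13.8, 12.8 and 12.97 in 2D and at 11.5, 20.95, 22.4 and 18.5 in 3D (adjusted p = 0.120, over all alternatives 0.00224 to 0.259). The 3D library of mouse 1 was below the 2D libraries and the other 3D libraries were above them. Without it Ikbkb differed by 0.63 with an adjusted p of 0.0022. This follows from removing the lowest 3D value and tests nothing further. The largest fall was that of Irak2, a kinase of interleukin-1 and Toll-like receptor signaling, by 0.94 (adjusted p = 0.0118, over all alternatives 0.00483 to 0.193), followed by the adaptors Tradd, by 0.56 (adjusted p = 0.0040, over all alternatives 0.00154 to 0.177), and Myd88, by 0.54 (adjusted p = 0.0457). The call of Myd88 was lost without the 2D library of mouse 3, 4 or 5 or the 3D library of mouse 1, 4 or 7, with adjusted p between 0.0574 and 0.107, and over all alternatives from 0.0317 to 0.415. It was also lost with values as deposited (-0.49, adjusted p = 0.0579) and under upper quartile scaling (-0.44, adjusted p = 0.0909). Irak1, the gene of the list with the highest mean in 3D and over all libraries, differed by 0.30 (adjusted p = 0.0469), and by 0.07 with values as deposited (adjusted p = 0.579, over all alternatives 0.017 to 0.579). Its call was also lost without the 2D library of mouse 2, 4 or 5 or the 3D library of mouse 4, 5 or 7, with adjusted p between 0.0806 and 0.115. When the 2D libraries of mice 3 and 4 were left out, Ikbkg passed at 0.50 (adjusted p = 0.0293, over all alternatives 0.0293 to 0.457). Chuk (-0.22), Myd88 (-0.29) and Rnf31 (0.94, beside 0.90 with all libraries) then did not pass. The libraries left out hold the 2 highest 2D values of Ikbkg, Chuk and Myd88. The higher value of Ikbkg and the smaller falls of Chuk and Myd88 thus follow from this choice and test nothing further.

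The third list held 29 receptors and ligands. Of the 28 tested, 6 were higher, 7 were lower and 15 did not pass, with a median of 0.09. The shares were 21.4% higher and 25.0% lower, beside 21.2% and 20.3% of all genes. Tnf, the prototype ligand of the canonical pathway, was at 0 in all 4 2D libraries and at 15.7, 13.2, 27.0 and 15.5 normalized FPKM in 3D. The mean of the deposited 3D values was at least 155-fold higher than the level that 3 fragments would give in any 2D library (limma's adjusted p = 7.5e-06, and 0.113 with the mouse as a block, the highest over its alternatives). Ltb, a ligand of the receptor Ltbr, was at 0, 0, 0.106 and 0.105 in 2D and at 90.0, 6.30, 14.1 and 2.79 in 3D, a difference of 3.73 (adjusted p = 0.0113, over all alternatives 0.000973 to 0.126), and the 3D libraries differed among themselves by more than 1 order of magnitude. The call of Ltb was lost without the 2D libraries of mice 3 and 4 (adjusted p = 0.0584), although the difference was again 3.73. Il1a and Il1b, which encode the interleukin-1 cytokines, did not pass the test. Il1b was at most at 0.115 in any library. Il1a was at 0.153, 0.142, 0.166 and 0.104 in 2D and at 4.21, 0.365, 0.336 and 0.380 in 3D (adjusted p = 0.211, over all alternatives 0.00162 to 0.376). Its groups did not overlap, and without the 3D library of mouse 1 it passed with a difference of 0.24 (adjusted p = 0.0016).

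Of the Toll-like receptors, which sense microbial products, Tlr3 was at 1.63, 2.36, 2.51 and 1.79 normalized FPKM in 2D and at 12.0, 31.1, 28.0 and 45.01 in 3D. The difference was 3.16 (standard error 0.36, limma's adjusted p = 0.0004, and 0.111 with the mouse as a block, the highest over its alternatives). Tlr2 differed by 1.79 (adjusted p = 0.0005) and Tlr4 by 0.26, which did not pass (adjusted p = 0.432). Tlr6 was lower in 3D by 0.62 (adjusted p = 0.0144, over all alternatives 0.00523 to 0.154), with groups that overlapped only in the deposited values, and Tlr1, Tlr5 and Tlr9 did not pass. The largest falls were those of Tnfrsf11b, a soluble decoy receptor, by 3.39 (adjusted p = 0.0042), of the ligand Tnfsf12, by 2.98 (adjusted p = 0.0002), and of its receptor Tnfrsf12a, by 1.06 (adjusted p = 0.0160). Tnfrsf12a was the most abundant gene of the list, at 273, 182, 227 and 232 in 2D and at 61.6, 128, 149 and 115 in 3D. With the mouse as a block the adjusted p of these 3 genes was 0.228, 0.143 and 0.136, and that of Tlr2 was 0.119. Ltbr differed by 0.37 (adjusted p = 0.0282), but by -0.01 with values as deposited. The call of Ltbr was also lost without the 2D library of mouse 2 or 5 or the 3D library of mouse 4, 5 or 7, with adjusted p between 0.0503 and 0.0690, and over all alternatives from 0.0194 to 0.926. The receptors Tnfrsf1a and Il1r1 did not pass (adjusted p = 0.375 and 0.778, over all alternatives 0.0147 to 0.839 and 0.0182 to 1.0), and the sign of each changed with the setting. Both passed without the 2D libraries of mice 3 and 4, at 0.55 and 1.71. The libraries left out hold the 2 highest 2D values of each gene, so these calls follow from the choice and test nothing further.

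The last list held 31 target genes, of which 10 were higher, 7 were lower and 14 did not pass. The shares were 32.3% higher and 22.6% lower, beside 21.2% and 20.3% of all genes. The median was 0.67, and 0.71 with 3 genes at the bound that the depth allows. The targets went both ways with large differences. Birc3, an inhibitor of cell death, was at 6.12, 4.29, 5.73 and 5.30 normalized FPKM in 2D and at 10.03, 9.50, 13.1 and 9.82 in 3D, a difference of 0.87 (standard error 0.15, limma's adjusted p = 0.0025, over all alternatives 0.000659 to 0.201). Lcn2, which encodes an iron-binding defense protein, had the highest mean of the list in 3D, at 5610 normalized FPKM, against 0.396 in 2D, where Csf1 had the highest, at 395. Lcn2, the chemokine Cxcl5 and the complement gene C3 had the largest rises, of 11.99, 8.87 and 5.89 (adjusted p = 1.8e-07, 1.7e-06 and 0.0040, and 0.111, 0.114 and 0.184 with the mouse as a block). C3 was at 0.508, 33.9, 18.9 and 0.272 in 2D, with the same 2 high libraries as Icam1.

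The chemokine gene Ccl2 was at 34.1, 172, 145 and 29.1 normalized FPKM in 2D and at 0.216, 0.724, 2.48 and 0.108 in 3D. It fell by 5.41 (standard error 0.68, limma's adjusted p = 0.0006), the largest fall of the list. Ptgs2, the inducible enzyme of prostaglandin synthesis, was at 345, 209, 110 and 162 in 2D and at 4.11, 9.19, 14.4 and 12.7 in 3D, and fell by 4.21 (adjusted p = 0.0002). The adhesion molecule gene Vcam1 was at 13.6, 104, 63.5 and 17.1 in 2D and at 3.62, 1.21, 5.46 and 0.759 in 3D, and fell by 3.48 (adjusted p = 0.0066). The 2D libraries of mice 3 and 4 were the higher ones in Ccl2 and in Vcam1, as in Icam1, while in 3D these 2 genes were far lower and Icam1 was not. Il6 was at 4.66, 4.20, 5.24 and 3.27 in 2D and at 0 in all 3D libraries, at least 45.2-fold lower (adjusted p = 9.6e-06). With the mouse as a block the adjusted p was 0.180 for Ccl2, 0.111 for Ptgs2, 0.264 for Vcam1 and 0.114 for Il6, in each the highest over its alternatives.

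The remaining targets named here did not pass the test. Cxcl1, a neutrophil chemokine, was at 0.827, 4.81, 1.69 and 1.16 normalized FPKM in 2D and at 81.3, 33.1, 37.1 and 0.905 in 3D (limma's adjusted p = 0.0693, over all alternatives 0.00108 to 0.148). Its 3D library of mouse 7 was within the 2D range, and without it Cxcl1 differed by 4.11 with an adjusted p of 0.0011. This follows from removing the lowest 3D value and tests nothing further. Sod2, the mitochondrial superoxide dismutase, was at 14.3, 16.4, 14.7 and 14.7 in 2D and at 25.0, 12.3, 16.3 and 20.0 in 3D (adjusted p = 0.378). Traf1 was at most at 0.0468 in 2D and at 0.617 in 3D. Ccl20 was at 0, 0.875, 0 and 0 in 2D and at 0.219, 0.374, 3.29 and 1.75 in 3D, where the libraries of mice 1 and 4 were below the 2D library of mouse 3.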

How the data were processed

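The deposited FPKM values, 1 column per library, were made by the authors, from paired-end reads of directional libraries. FASTX_Trimmer and BBMap served for trimming, TopHat for mapping and Cufflinks for FPKM. The submitters' processing notes name mm10; the annotation and the use of strand were not given in the sources used here. Nfkb1 overlaps a gene on its own strand, and Nfkb2, Bcl3 and Icam1 overlap genes on the opposite strand, so their values are less certain (gene positions from GENCODE M21). The quantile normalization named in the methods was not in the deposited values and was applied with limma 3.58.1 in R 4.3.3 over 18862 genes above 0 in at least 1 library; 5484 were at 0. Then log2(FPKM + 1) was fitted per gene with an intensity trend and without covariates, with Benjamini-Hochberg adjustment over all genes, and the fit was tested on simulated data.

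Steps between the lowest FPKM of long genes gave an estimate of depth. A gene of 2 kb at 1 FPKM rests on about 28.9 fragments in the smallest library, and this limit covers counting error only. A fold against a group at or under 3 fragments in each library is a lower bound, the mean deposited FPKM of the other group over the highest such floor.

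Mice 4 and 5 pair the culture types because each gave a library of both kinds. Over 12580 genes the deviations of their libraries correlated at -0.05 and -0.11. Only these mice gave both culture types, so these values cannot decide whether the mouse had an effect. The main fit treated all libraries as independent. Genes named are the 10 members, all 13 further inhibitors, in the other lists the 3 largest rises and 3 largest falls among called genes, the gene with the highest mean over all libraries and further genes chosen for their role, the 5 genes most like Nfkbia and cell type markers. Members and lists were chosen with earlier results of these data known. Alternatives were values as deposited, upper quartile scaling, the fit without trend, a filter keeping mean FPKM of 1 or more, 0.1 as pseudocount, a block or a random effect for the mouse, only mice 4 and 5, genes under 300 nt left out, each library left out and, chosen after seeing the data, 2D mice 3 and 4 left out and, for the ratios, a permutation within mice 4 and 5.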

Additional observations from a re-analysis of the deposited data

Results flagged for a closer look

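In some groups of 4 libraries the highest or lowest value stood far from the other 3, relative to the range of the group. This was seen in 10 of 134 groups examined, and chance gives about 1 in 20 where values are normally distributed. In 4 of the 10 the other 3 libraries were at 0, where any value above 0 stands apart, so that this rate does not apply to them. In 3D, the library of mouse 5 was highest for Nfkb2 (35.8 normalized FPKM, others 26.0 to 27.2), for Lcn2 (8252, others 4492 to 4980) and for Birc3 (13.1, others 9.50 to 10.03). The 3D library of mouse 1 was lowest for Nfkbid (0.511, others 0.902 to 0.964) and highest for Il1a (4.21, others 0.336 to 0.380). In the deposited values Nfkb2 and Il1a stood apart in the same way, but Lcn2, Birc3 and Nfkbid did not by the same rule. Lcn2 was at 5440 deposited FPKM in mouse 5, within the 4552 to 6736 of the other 3D libraries. Without the 3D library of mouse 1, Il1a differed by 0.24 with limma's adjusted p of 0.0016. The other 5 were values of 1.15 or less in genes of which the 3 other libraries were at or near 0. They were Il1b, for which mouse 3 stood alone in 2D (0.0549) and mouse 7 in 3D (0.115), Cxcl5 in the 2D library of mouse 4 (1.15), Traf1 in the 2D library of mouse 5 (0.0468) and Ccl20 in the 2D library of mouse 3 (0.875). Their causes were not tested.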

How the results depend on the processing

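The 10 genes were recomputed under 18 alternatives, 180 values in all: 154 kept direction and call, 15 lost the call, 8 gained it and 3 changed sign. For 49 other named genes the numbers were 741, 98, 18 and 19 of 876. With the mouse as a replicate block, 0 genes higher and 0 lower in 3D were called among the 10, the other pathway genes and all genes. Among all genes, 4000 and 3823 were called without the block. At an unadjusted p below 0.05 there were 2833 and 2383 with the block and 4704 and 4555 without it. With mice 4 and 5 alone, 0 of the 10 were lower, 16 other pathway genes were higher and 8 lower, and 3220 genes were called; the samples are fewer. Upper quartile scaling left 0 of the 10 lower. Without 2D mice 3 and 4, 8 were higher and 0 lower. This choice removed the 2 highest 2D values of Icam1, Bcl3, Relb, Nfkbia, Rela and Tnfaip3.

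Leaving out each library in turn gave 4 to 7 genes higher and 1 lower among the 10, and 20 to 33 higher and 17 to 19 lower among the others. Among all genes these fits called 3393 to 4051 higher and 3204 to 3835 lower, of 18632 to 18762 tested. The change in the log2 ratio of Nfkbia over Rela then ran from 0.61 to 1.24, and the exact p was 0.0571 without any 1 of the 2D libraries. In a permutation with the mouse as a replicate block, chosen after seeing the data, the log2 ratio of Nfkbia over Rela differed by 1.00, that of Nfkb2 over Nfkb1 by -0.99 and that of Relb over Rela by 1.48, each at an exact p of 0.0833, the smallest of its 24 arrangements.

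Changes of sign were seen only in genes that did not pass the test, except Ltbr. With the block and with mice 4 and 5 alone, Rela was at 0.074 and 0.075, Cyld at -0.015 and -0.013, Il1r1 at -0.12 and -0.12, and Sod2 at -0.051 and -0.050. Over the libraries left out, Rela ran from -0.25 to 0.020, Cyld from -0.14 to 0.22, Tnip3 from -0.89 to 0.049, Il1r1 from -0.22 to 0.91 and Il1b from -0.019 to 0.040. Tnip3 was at 0.27 with a pseudocount of 0.1 and at 0.86 without 2D mice 3 and 4. With values as deposited, Tax1bp1 was at -0.018, Ltbr at -0.013 and Tnfrsf1a at -0.28 (-0.22 under upper quartile scaling). The causes were not tested. The median of all genes was at most 0.014 under the scaling alternatives. Genes near or under 1 FPKM, such as Nfkbid and Traf1, rest on few fragments.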
